A study of Mus musculus with 8 samples.

Results

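Dense clusters of open chromatin were defined by position alone. The regions of the authors' full table were sorted along each chromosome, and neighbours with gaps of 5 kb or less were joined into chains. Chains of 10 or more regions were kept. They numbered 538 and held 6398 of the 160978 regions, or 3.97%. The rule itself uses no fold change or call, though it was set with earlier results of these data known.

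The regions come from ATAC-seq, which reads out DNA that a transposase can reach, of cKit+ Lymph- Ery- cells sorted from mouse bone marrow. Blood stem cells and progenitors make up this sort. The 4 libraries labelled AML (acute myeloid leukemia) comprised 2 of URE-delta/+;Tet2+/- and 2 of URE-delta/+;Tet2-/- mice. The 4 normal libraries were 1 each of URE+/+;Tet2+/+, URE-delta/+;Tet2+/+, URE+/+;Tet2+/- and URE+/+;Tet2-/-, described as age-matched. Their sequencing lanes, by the labels, were 6, 7, 8 and 8 in that order, and the AML libraries lay in lanes 6 and 7. URE-delta is a deleted copy of the upstream regulatory element, an enhancer of Spi1, the gene of the transcription factor PU.1, and Tet2 encodes an enzyme that oxidises methylated cytosine. Ages, any pooling of mice, and the libraries on either side of the deposited contrast, leukemic over non-leukemic at low PU.1, are facts not given in the sources used here. Of the normal libraries only 1 carries the URE deletion. The values are 1 log2 fold change, 1 log2 average abundance (a measure of read level) and 1 adjusted p per region. No value per library was used, so the depth per library and the spread between mice are unknown, and leukemia cannot be told apart from the combined genotype.

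Long runs of closely spaced open regions are known around genes that define a cell's identity. Such runs, called stretch enhancers or super-enhancers, gather binding sites for several lineage factors, and in marrow progenitors these include PU.1 and other ETS factors, RUNX1, GATA2 and C/EBP proteins. A run can lie within an intron of the gene it controls, beside it, or inside a neighbouring gene, so the nearest gene names a place and not a target. A change in accessibility may touch an entire run or a few of its elements.

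The sorted fraction was checked at transcription starts from RefSeq. All 4 stem and progenitor markers examined (Kit, Cd34, Meis1 and Gata2) carried a region, with log2 abundances from 1.66 to 3.26, as did the 3 granulocyte markers Mpo, Elane and Ctsg. The B-cell markers Cd79a, Ebf1 and Pax5 carried none, and Rag1 stood at -2.26. Of 5 T and NK cell markers, 4 carried a region, from -2.08 to -0.12, and of 5 erythroid markers 4 did, from -2.61 to -0.36. All 3 megakaryocyte markers (Itga2b, Gp9 and Pf4) also carried one, from 0.57 to 1.87. Of 3 mast cell and basophil markers 2 did, Cpa3 at -1.39 and Mcpt8 at 0.62. For scale, abundances in the full table went down to -3.01.

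Starts of lineage markers themselves differed between leukemic and non-leukemic cells. Those of the stem cell marker Cd34 and the megakaryocyte marker Itga2b fell, at -2.48 (adjusted p = 1.24e-04) and -2.59 (adjusted p = 1.95e-04) by the authors' deposited table. Those of the granule protease genes Elane and Ctsg rose, at 1.82 and 2.80 by the authors' deposited table. That of the basophil gene Mcpt8 rose too, also at 1.82. The other mast cell and basophil markers did not share this, with Cpa3 at -1.35 by the authors' deposited table and not called. Ms4a2 carried no region on its start. All 3 megakaryocyte markers had negative values, with Pf4 at -2.03 and Gp9 at -1.37 by the authors' deposited table and neither called. Kit, Mpo, Gata2 and Meis1 were not called, at -0.19, -0.25, -0.59 and -1.81 by the authors' deposited table. In such bulk samples a change in the share of a cell type and a change within its cells cannot be told apart, and the part of cell type shares in the chain values below was not tested.

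Of the 538 chains 247 held at least 1 region on a transcription start. The starts of 14 protein-coding genes lay in a region that was called changed, and 6 of these promoters are shown, all from chains named below. They are a choice and not the full set: those of Cd82, Ptprj and C130050O18Rik, also in chains described below, are left out. Each sequence is the 250 bases before the start in RefSeq's GRCm38.p6 table, written 5′ to 3′ on the gene's strand. Capitals mark GGAAGT, the core of ETS factor sites, TGTGGT of RUNX sites and AGATAA of GATA sites, on either strand. The first 4 lay in regions that fell and the last 2 in regions that rose in leukemic cells.
Cbfa2t3 (chr8:122699110-122699359, minus strand): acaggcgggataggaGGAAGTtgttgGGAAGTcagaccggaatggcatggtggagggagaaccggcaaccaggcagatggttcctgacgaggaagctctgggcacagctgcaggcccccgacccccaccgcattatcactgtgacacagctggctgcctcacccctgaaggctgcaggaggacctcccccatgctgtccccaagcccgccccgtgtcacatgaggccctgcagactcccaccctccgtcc
Tnip3 (chr6:65590148-65590397, plus strand): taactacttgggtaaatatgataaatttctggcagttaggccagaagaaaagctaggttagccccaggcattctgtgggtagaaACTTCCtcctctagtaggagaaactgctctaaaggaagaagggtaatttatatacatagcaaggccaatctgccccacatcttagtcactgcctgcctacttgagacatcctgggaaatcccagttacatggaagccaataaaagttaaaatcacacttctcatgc
Pik3r5 (chr11:68431875-68432124, plus strand): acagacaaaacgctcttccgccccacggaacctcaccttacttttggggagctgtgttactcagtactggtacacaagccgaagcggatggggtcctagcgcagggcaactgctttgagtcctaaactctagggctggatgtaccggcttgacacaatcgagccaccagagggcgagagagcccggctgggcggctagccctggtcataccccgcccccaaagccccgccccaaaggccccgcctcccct
Dusp2 (chr2:127335909-127336158, plus strand): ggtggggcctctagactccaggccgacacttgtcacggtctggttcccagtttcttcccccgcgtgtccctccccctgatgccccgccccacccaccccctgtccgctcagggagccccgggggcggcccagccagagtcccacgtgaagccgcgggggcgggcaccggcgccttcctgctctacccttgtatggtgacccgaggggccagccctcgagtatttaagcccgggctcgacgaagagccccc
Rhoq (chr17:86962861-86963110, plus strand): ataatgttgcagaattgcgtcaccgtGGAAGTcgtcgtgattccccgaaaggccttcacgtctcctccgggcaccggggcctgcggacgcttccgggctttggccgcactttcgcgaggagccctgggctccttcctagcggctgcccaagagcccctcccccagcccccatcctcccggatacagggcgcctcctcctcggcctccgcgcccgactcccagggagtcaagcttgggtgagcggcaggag
Cited4 (chr4:120666313-120666562, plus strand): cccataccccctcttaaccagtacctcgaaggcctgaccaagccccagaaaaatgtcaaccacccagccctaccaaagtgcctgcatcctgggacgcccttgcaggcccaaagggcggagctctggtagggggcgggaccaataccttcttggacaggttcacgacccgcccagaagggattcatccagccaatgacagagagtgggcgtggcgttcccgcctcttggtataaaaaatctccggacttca

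The ETS core occurred 2 times before Cbfa2t3, 1 time before Tnip3 and 1 time before Rhoq, and in none of the other 3 windows. It was in 21.9% of the 401 windows whose start lay in a region of a dense chain, in 23.3% of the 15945 whose start lay in any open region and in 19.7% of all 32851 windows. The RUNX letters were in 11.7%, 11.6% and 14.0% of these sets, and the GATA letters in 7.73%, 6.22% and 9.99%. Against windows in any open region, those of dense chains were thus lower for the ETS core and higher for the others, by small margins that were not tested. None of the 6 windows shown held the RUNX or GATA letters, and no 2 matches overlapped. Among the windows not shown, that of Havcr2 and a window of Cd82 held the RUNX letters. A match is only a match of letters.

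The chains ran from 14.1 to 64.3 kb, with a median of 28.2 kb and a median of 11 regions, and together spanned 16.0 Mb. Open regions covered a median of 21.5% of a chain. The median gap inside chains was 1850.5 bp, and no gap in the full table was under 502 bp. Regions of chains had a median width of 339.5 bp, against 334 bp over all regions. Their log2 abundance was higher, with a median of -0.35 against -1.17, and 32.6% of them lay in the most abundant of 5 equal bins of all regions.

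Chains lay mostly inside genes. Region centres in gene interiors made up 65.6% of the members and 53.4% of all regions, and 12.1% and 15.5% lay within 1 kb of a gene's end. Of the 538 chains, 350 overlapped 1 protein-coding gene, 105 overlapped 2 or more and 83 overlapped none. In 281 chains all regions shared the same nearest gene. Chains reached 617 of the 17688 protein-coding genes that were nearest to any region, or 3.49%. Each chromosome held some, from 6 on chromosome X to 41 on chromosomes 1 and 11, and chromosome 13 held 13.

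Regions of dense chains were called less accessible more often than regions at large. A region is said to have risen or fallen where the authors' adjusted p was under 0.001, which reproduced their deposited sets of changed regions exactly. Over all regions 1.24% rose and 1.22% fell. In the chains 102 regions rose, or 1.59%, and 135 fell, or 2.11%, so 3.70% of members changed in either direction against 2.46% of all regions. The median log2 fold change was -0.13 in chains and 0.02 over all regions. Regions are not replicates, so these shares are descriptions and were not tested.

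The share that fell was larger in longer chains, and the share that rose was not throughout. Of the 45437 regions that stood alone, 0.953% rose and 0.759% fell. In chains of 2 to 4 regions the shares were 1.29% and 1.21%, and in chains of 5 to 9 they were 1.47% and 1.69%. Among the 1144 regions in chains of 15 or more, 0.787% rose and 2.97% fell. Chromosome 2 carries Spi1, and the median log2 fold change over its 12588 regions was -0.56. Without it 1.69% of chain regions rose and 1.87% fell, against 1.30% and 1.03% of all regions. Chromosome X, which was kept in, was also low. Its median log2 fold change was -0.45 over its 3821 regions and -0.86 over its 61 chain members, and 0 of these members were called. At the boundary of the rule the 307 chains of 9 regions had a median fold change of -0.09 on the log2 scale and the 203 chains of 10 one of -0.13.

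**Figure D1:**
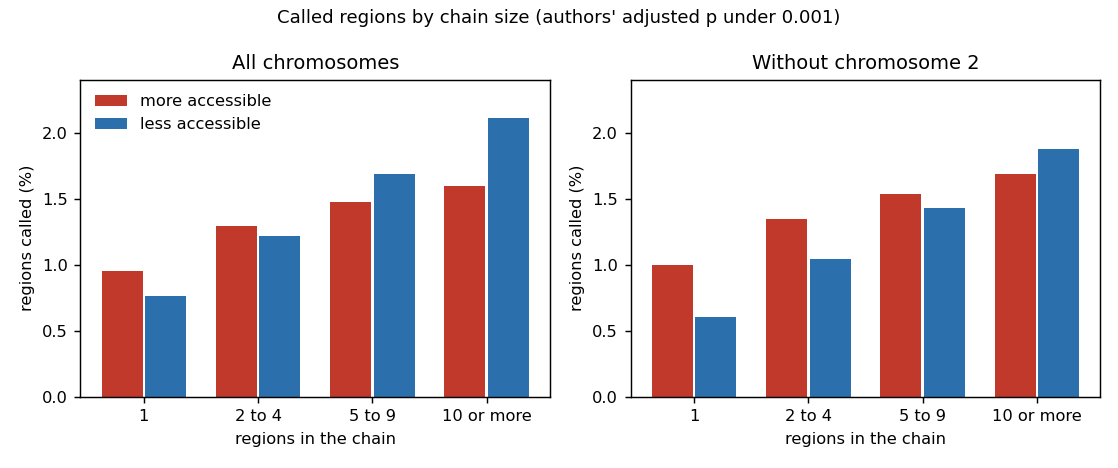
Share of regions called at the authors' adjusted p under 0.001 (vertical axis, percent) by the number of regions in their chain (horizontal axis), for all chromosomes and without chromosome 2; red bars are more and blue bars less accessible in leukemic cells. The share that fell goes from 0.759% of lone regions to 2.11% in chains of 10 or more.

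Abundance moved with these shares. With all regions cut into 5 equal bins by abundance, 5.99% of chain members in the highest bin fell and 2.35% rose, against 5.26% and 2.58% of all its regions. In the next bin 0.555% of members fell and 2.53% rose, against 0.808% and 2.61% of all. The median fold change of members was lower than that of all regions in each of these bins, at -0.22 against 0.01 and at -0.21 against 0.02. In the 2 bins of lowest abundance 0 members were called, where 0.00311% and 0.127% of all regions rose. The part of abundance in the counts of losses was not tested.

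Calls were spread over many chains. Of the 538 chains 379 had 0 called regions, 102 had 1 and the rest 2 or more. Of the 57 chains with 2 or more calls, 53 had them in 1 direction. At an adjusted p under 0.05, 387 chains had 2 or more, and 151 of these had both directions. At the stricter threshold the 4 chains with both directions lay at Zmiz1, Lrrc25, Csk and Snrk, each with 1 region that rose and 1 that fell. The Zmiz1 chain meant here has 10 regions, at chr14:25513689-25534448. In 21 chains 2 or more regions rose and in 32 chains 2 or more fell, and these 53 chains held 127 of the 237 called members. Of the 32, 5 lay on chromosome 2.

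**Figure D2:**
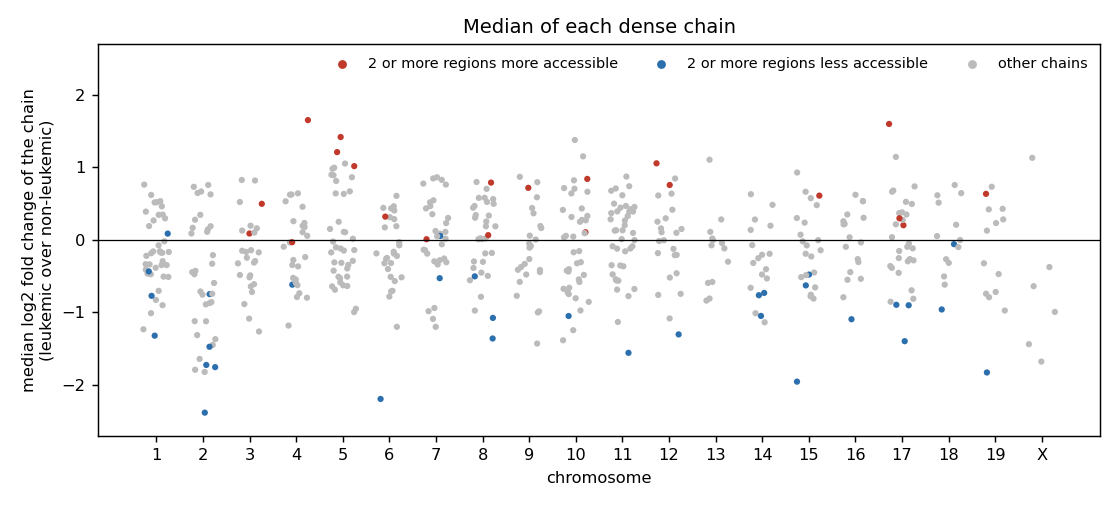
Median log2 fold change, leukemic over non-leukemic (vertical axis), of each of the 538 chains (points) by chromosome (horizontal axis; points are spread sideways for clarity); red points have 2 or more regions that rose, blue points 2 or more that fell. Medians run from -2.38 on chromosome 2 to 1.65 on chromosome 4.

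Chain medians ran from -2.38 to 1.65, with quartiles of -0.52 and 0.32. They were below 0 in 304 chains and above 0 in 234, and outside chromosome 2 in 279 and 222. Medians lay below -1 in 41 chains, 12 of them on chromosome 2, and above 1 in 12. Every region had a negative fold change in 20 chains, 11 of them on chromosome 2, and a positive one in 5, those nearest to Cited4, 3110082I17Rik, Ppp5c, Cish and Gm10232. The standard deviation of the log2 fold change within a chain had a median of 0.88, against 1.07 over all chain members and 1.00 over all regions. Differences between chains made up 31.5% of the variance among members and 28.6% without chromosome 2. The intraclass correlation, which allows for chain length, was 0.25 in dense chains, 0.30 in chains of 5 to 9 and 0.35 in chains of 2 to 4.

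Neighbours in a chain were most alike where they lay closest. Across pairs of neighbours 0.5 to 1 kb apart, Pearson's r of the log2 fold changes was 0.51 over 1406 pairs in dense chains and 0.49 over 17515 pairs at large. At gaps of 2 to 3 kb it was 0.31 and 0.35. Pairs 20 to 50 kb apart at large still had an r of 0.21, or 0.17 without chromosome 2. These are correlations across sites of the same libraries, and neighbours also shared abundance, with an r of 0.39 at 0.5 to 1 kb in dense chains.

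**Figure D3:**
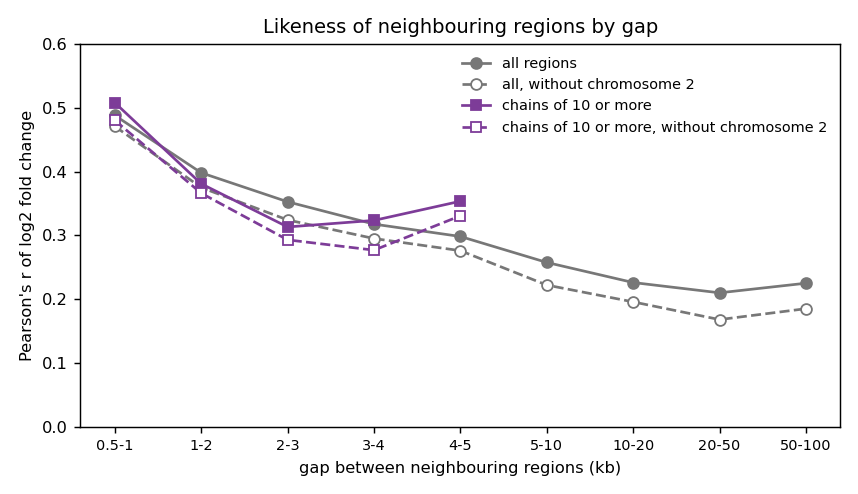
Pearson's r between the log2 fold changes of neighbouring regions (vertical axis) by the gap between them in kb (horizontal axis), for chains of 10 or more regions (squares) and all regions (circles), with open symbols without chromosome 2. In dense chains r falls from 0.51 at 0.5 to 1 kb to 0.31 at 2 to 3 kb and is 0.35 at 4 to 5 kb.

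The most abundant region of a chain was called less accessible more often than the others. Of the 538 regions with the highest abundance in their chain, 6.51% fell and 1.86% rose. Of the other 5860 regions 1.71% fell and 1.57% rose. The most abundant regions had a median log2 abundance of 2.47, in the bin where 5.26% of all regions fell, and 27.3% lay at gene ends. Of the first and last regions of chains, 0.929% rose and 2.42% fell, against 1.73% and 2.05% of the inner regions. Members that fell were wider than members that rose, with medians of 681 and 313 bp, and 10.4% and 12.7% of them lay at gene ends. All regions that fell were likewise wider than all that rose, with medians of 752 and 346 bp, and 18.1% and 15.2% lay at gene ends.

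Sgms1, which encodes a sphingomyelin synthase of the Golgi, held the chain with the most called regions. Its 16 regions spanned 55.2 kb inside the gene at chr19:32221885-32277114, and 6 fell while 0 rose. The median log2 fold change was -1.83, and 15 of the 16 values were negative. Its deepest loss in the authors' deposited table was -4.59 (adjusted p = 9.32e-06) at chr19:32257951-32259349, and the called regions ran up to -2.58. Of the 6, 4 followed each other between 32254234 and 32260104, near the middle of the chain. The most abundant region of the chain, at a log2 abundance of 3.73, stood at -0.76 (adjusted p = 0.0606) by the authors' deposited table. The outermost region, at 32221885, stood at 1.36 by the authors' deposited table.

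Tnip3, the gene of an inhibitor of NF-kB signalling, had the lowest median outside chromosome 2, -2.19 over 11 regions. All 11 values were negative and 3 regions fell, at chr6:65590013-65590527 on the transcription start, and 2 further into the gene. In the authors' deposited table these stood at -2.38, -2.75 and -2.37. The chain began upstream of Tnip3, where 5 regions were nearest to a predicted gene. The lowest value, -2.86 just upstream of Tnip3 (adjusted p = 0.00436) by the authors' deposited table, was not called.

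Retreg1, whose product marks endoplasmic reticulum for autophagy, had a chain of 11 regions inside the gene with a median of -1.95. Of these 3 fell, and the most abundant, at chr15:25909780-25911189, had the lowest value, -3.45 (adjusted p = 2.35e-06) by the authors' deposited table. In this chain 10 of 11 values were negative. At Rab11fip1, a gene of endosome recycling, 3 of 10 regions fell. The most abundant of them, with a log2 abundance of 4.87 at a gene end, stood at -1.50 (adjusted p = 2.36e-05) by the authors' deposited table. The interior region at chr8:27159140-27160470 was lower, at -3.18 in the authors' deposited table. The last of the 4 lowest chain medians outside chromosome 2, -1.68, lay on chromosome X at 4933407K13Rik. Of the 10 regions there 9 were negative and 0 were called, with a lowest adjusted p of 0.112 in the authors' deposited table.

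The other chains outside chromosome 2 with 3 losses that the naming rule took lay at Pik3r5, Irf2 and Tespa1. Pik3r5, the gene of a regulatory subunit of phosphoinositide 3-kinase gamma, had 3 losses among 14 regions with a median of -1.56. Its promoter region, at chr11:68430591-68433058, stood at -1.82 (adjusted p = 2.08e-05) by the authors' deposited table. The 2 losses in the gene's interior were larger, at -3.22 and -3.43 in the authors' deposited table. Irf2, which encodes a transcription factor of interferon responses, had 3 losses among 15 regions. These ranged between -1.96 and -3.23 in the authors' deposited table. Tespa1, a gene of T-cell receptor signalling, had 3 losses among 14. They ranged from -2.49 to -2.91 in the authors' deposited table, and 2 lay beside the gene and 1 at its end.

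**Figure D4:**
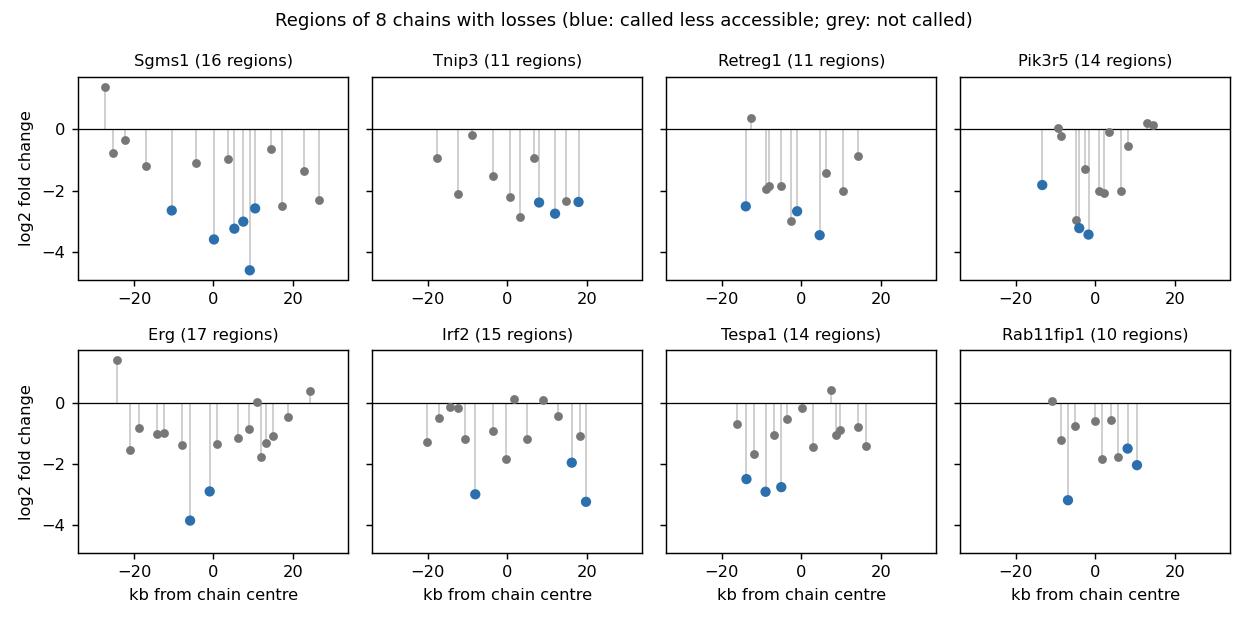
Log2 fold change, leukemic over non-leukemic (vertical axis), of every region in 8 chains with losses by distance from the chain's centre in kb (horizontal axis); blue points fell at the authors' adjusted p under 0.001 and grey points were not called. Sgms1 has 6 called regions, Erg has 2 and the other 6 chains have 3 each.

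Chromosome 2 held 37 chains, whose regions had a median of -0.62 against -0.56 over all regions of that chromosome. The lowest chain median of all, -2.38, was that of 11 regions between Cd44, the hyaluronan receptor gene, and Pdhx, at chr2:102967417-102999620. It lay 21.4 kb from Pdhx and 65.7 kb from Cd44, and 4 of its regions fell. A further region of this Gm34483 chain stood at -4.89 (adjusted p = 0.00191) by the authors' deposited table and was not called. The chain across Gm46762 and Dusp2, a MAP kinase phosphatase gene, held 17 regions, all negative, of which 4 fell. Of the 17, 8 were nearest to Gm46762, 5 to Stard7, 2 to Astl and 2 to Dusp2. The called region on the starts of both Dusp2 and Gm46762 stood at -3.15 (adjusted p = 1.48e-05) by the authors' deposited table. The lowest, inside Gm46762 at chr2:127322708-127323234, stood at -5.98 (adjusted p = 1.33e-04) by the authors' deposited table, the deepest loss of any member. Cd82, a tetraspanin gene, had 4 losses among 13 regions and Ptprj, a receptor phosphatase gene, 3 among 13. Among the 422 members on chromosome 2, 23 fell and 1 rose, or 5.45% and 0.237%, against 3.42% and 0.580% of all regions of that chromosome.

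Gains were fewer to a chain. Hpse, the gene of heparanase, which cuts heparan sulfate chains, had 3 regions that rose among 10, all inside the gene. The highest gain of any member was there, 3.34 (adjusted p = 2.08e-05) by the authors' deposited table, at chr5:100715882-100717125. The promoter region of Hpse, the most abundant of the chain, stood at 1.05 (adjusted p = 0.00847) by the authors' deposited table and was not called. The chain median was 1.21.

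Cited4, a gene of a transcriptional co-activator, had the highest chain median, 1.65 over 11 regions with all values positive. Its promoter region at chr4:120665082-120668071 rose, with 1.76 (adjusted p = 1.15e-04) by the authors' deposited table. A region at the start of the neighbouring Gm29891 also rose, at 2.44 in the authors' deposited table. The chain at Gm10232, at chr17:3004640-3025506, had a median of 1.60 with 2 regions that rose. Its 10 regions had a narrow range in the authors' deposited table, 0.78 to 1.97, and overlapped no protein-coding gene. It lies beside the unsequenced bases that open this chromosome in the assembly.

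Gna12, the gene of a G protein alpha subunit, had a median of 1.42 over 10 regions, of which 2 rose inside the gene, at 2.56 and 1.71 in the authors' deposited table. Arid5b, a gene of a DNA-binding chromatin factor, had a median of 1.38 over 11 regions, but only 1 rose, at 1.81 (adjusted p = 8.87e-04) by the authors' deposited table. At an adjusted p under 0.05, which 7.98% of all regions passed as gains and 9.21% as losses, 7 regions were higher at Gna12 and 7 at Arid5b, and 0 were lower. The 21 chains with 2 or more gains also included those at Prkch, Gng7, Ccdc88c, Tob2, Ifngr1 and Rhoq. At Ifngr1, an interferon gamma receptor gene, both gains lay inside the gene, at 3.05 and 2.38 in the authors' deposited table, while its promoter region, at a log2 abundance of 5.40, stood at -0.23 (adjusted p = 0.483) by the authors' deposited table.

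**Figure D5:**
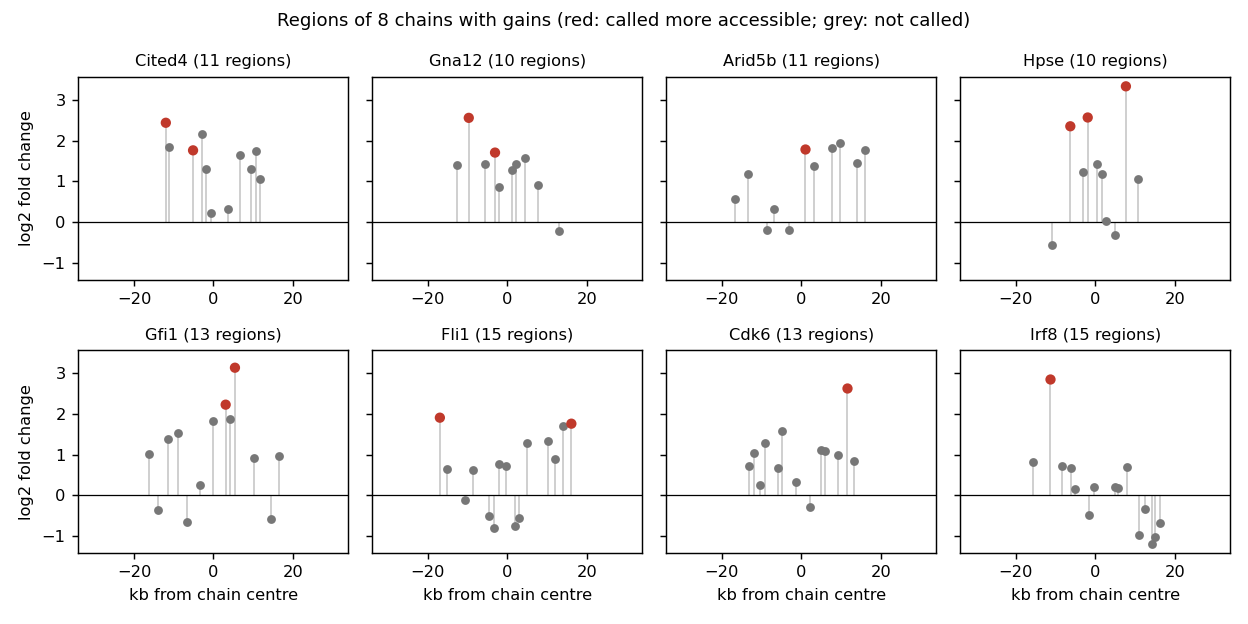
Log2 fold change, leukemic over non-leukemic (vertical axis), of every region in 8 chains with gains by distance from the chain's centre in kb (horizontal axis); red points rose at the authors' adjusted p under 0.001 and grey points were not called. Hpse has 3 called regions, Cited4, Gna12, Gfi1 and Fli1 have 2 each, and Arid5b, Cdk6 and Irf8 have 1.

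Of 31 stem and progenitor genes listed, 10 were nearest to regions of 10 dense chains, against 3.49% of all protein-coding genes nearest to a region. Hoxa9 and Hoxa10 shared 1 of these chains, and Etv6 had 2. The 31 genes were nearest to 748 regions, where 30036 genes in all were nearest to 158987. A gene with more regions can more readily meet a chain, and the comparison did not allow for this. These genes' 117 chain regions had 3 gains and 3 losses, where 1.59% of all chain members rose and 2.11% fell. Erg and Fli1 are a pair of related ETS factor genes. The chain in Erg, at chr16:95415988-95464952, had 17 regions with a median of -1.09, and 2 fell, at -3.84 (adjusted p = 9.88e-06) and -2.89 in the authors' deposited table. The most abundant region there, at the chain's edge, stood at 0.39 in the authors' deposited table. The chain in Fli1, at chr9:32487376-32521693, had 15 regions with a median of 0.72, and the first and last of them rose, at 1.91 and 1.76 in the authors' deposited table. Values of its inner regions reached down to -0.81 in the authors' deposited table, and the 2 gains sat at its borders.

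The other stem and progenitor chains had 1 call or 0. Etv6, an ETS repressor gene, had 2 chains with medians of 0.46 and 0.17 and 1 gain in the second. Lmo2, which encodes a bridging factor of blood transcription complexes, had 14 regions with a median of -0.43 and 1 that fell. Chains at Hoxa9 and Hoxa10, homeobox genes of progenitors, and at the adhesion receptor gene Adgrg1 both had medians of -0.78 with 0 calls. Bcl11a stood at 0.13, Gfi1b at -0.33 and the chain beside Zfpm1 at 0.34, also with 0 calls. Over all 748 regions nearest to the listed genes 8 rose and 20 fell, where 1.24% and 1.22% of all 160978 regions did.

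Of 37 myeloid factor and granulocyte genes 7 lay at dense chains, against 3.49% of all protein-coding genes nearest to a region. These 37 genes were nearest to 247 regions, and the number of regions per gene was again not allowed for. Their 60 chain regions had 3 gains and 0 losses, where 1.59% of all chain members rose and 2.11% fell. Such small counts were not tested. Over all 247 regions nearest to the listed genes 15 rose and 6 fell, where 1.24% and 1.22% of all 160978 regions did. Gfi1, which encodes a repressor used in making neutrophils, had a median of 1.02 over 13 regions. Of these 2 rose inside the gene, at 3.14 (adjusted p = 2.33e-05) and 2.23 in the authors' deposited table. Irf8, a factor of monocyte and dendritic cell formation, had 15 regions with a median of 0.19. A region inside the gene, at chr8:120740712-120741317, rose by 2.86 (adjusted p = 5.27e-05) by the authors' deposited table, and the region on its start stood at 0.83 there. The far end of the chain, beyond Irf8, went down to -1.19 in the authors' deposited table. Chains at Nr4a1, Lyz2, Ccr2 and Fcgr2b had medians of -0.78, -0.54, -0.41 and -0.17, the one at Zeb2 had 0.76, and 0 of their regions were called.

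Cdk6, a kinase gene of the G1 phase, carried 2 dense chains with medians of 1.05 and 0.98 and 1 gain in each. In the larger, 12 of 13 values were positive, and the gain stood at 2.65 (adjusted p = 7.14e-05) by the authors' deposited table. Among the other signalling and cell cycle genes, chains at Junb, Socs3, Mcl1 and Nfkb1 had medians of 0.70, 0.50, 0.10 and -0.52 and 0 calls. Of 18 B-cell genes 1 met a chain, Bach2, of 18 T and NK cell genes 1, Cd247, and of 16 erythroid genes 1, Car2. For comparison, 3.49% of all protein-coding genes nearest to a region met a chain. Of the 3 lists 17, 16 and 14 genes, in that order, were nearest to a region. The number of regions per gene was not allowed for here either. The chains at Cd247 and Car2 had medians of -0.41 and -0.88 and 0 calls. The chain in Bach2, a repressor gene of B cells, was negative in all 14 regions, with a median of -1.18, yet its lowest adjusted p was 0.00205 in the authors' deposited table. Of the megakaryocyte list only Fli1 met a chain, and 0 of 12 mast cell and basophil and 0 of 20 housekeeping genes did. Of the housekeeping genes 19 were nearest to a region, to 69 regions in all.

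Since 5 chains tied at 20 regions, 9 are described. The longest held 25 regions over 64.3 kb on chromosome 14, overlapping Ubac2 and holding the whole of Timm8a2. Of its regions 14 were nearest to Timm8a2 and 6 to Ubac2. Its median was -1.05, and 2 regions fell, at -2.71 nearest to Timm8a2 and -2.63 nearest to Ubac2 in the authors' deposited table. A second chain in Ubac2, across Gpr18, had 16 regions with a median of -0.76 and 2 losses, and another, across the receptor gene Gpr183, had a median of -0.21. Chains of 22 regions lay in Evl, a regulator of actin, and Aff1, a transcription elongation factor gene, with medians of -0.76 and 0.25. The chain in Prkcb, a protein kinase C gene, had 21 regions and a median of -0.30. Those at the GTPase genes Gimap4, Gimap6 and Gimap9, at Cd2, Zmiz1, Rgs10, and Coro1c with Selplg had 20 each. Of these last 8 chains only those at Evl and Gimap4 had a called region, 1 loss each.

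MicroRNA genes lay in 9 chains. The cluster of Mir23a, Mir27a and Mir24-2 on chromosome 8, and the pair of Mir212 and Mir132 on chromosome 11, are shown, each a cluster within 1 chain. Capitals mark the seed, bases 2 to 8, with which a microRNA pairs to its targets; miR-212 and miR-132 share theirs.
miR-23a-3p: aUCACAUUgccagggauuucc
miR-27a-3p: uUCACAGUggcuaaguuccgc
miR-24-3p: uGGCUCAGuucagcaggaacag
miR-212-3p: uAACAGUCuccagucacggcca
miR-132-3p: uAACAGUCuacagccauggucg

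The chain at Mir23a had 10 regions with a median of 0.58 and 0 calls, with values from -0.16 to 1.05 in the authors' deposited table. The chain at Mir212 also had 10 regions, a median of 0.45 and 0 calls, and the region on the hairpin itself stood at 0.20 (adjusted p = 0.498) by the authors' deposited table. The chain that holds Mir339, in the 3110082I17Rik gene, had a median of 0.90 over 16 regions, all positive. It had 1 gain, at 2.92 (adjusted p = 4.59e-05) by the authors' deposited table, on the start of C130050O18Rik. At Mir196b, inside the Hoxa9 chain, the median was -0.78 with 0 calls.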

How the data were processed

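ATAC-seq of 8 libraries was represented here by the authors' own table of 1 comparison, leukemic over non-leukemic, and by 3 sets drawn from it. Per the submitters' processing notes, GRCm38 (mm10), Bowtie2 2.4.1, SAMtools 1.10.2 and Genrich 0.6 were used; the file's title names csaw. Settings, normalization, read filters and any transposase shift were items not given in the sources used here. Both the deposited log2 fold change and log2 abundance are the authors' values per region; the abundance column is read from its position and range. The authors' deposited adjusted p-value equals a Benjamini-Hochberg adjustment of their p-value over 160978 regions within 2.39e-15. Their sets equal adjusted p under 0.001 with the matching sign, or over 0.9.

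Regions were chained with Python 3.11.15 and pandas 2.3.3, after a check on simulated chains. Coordinates are as deposited; a start base of 0 or 1 is a detail not given in the sources used here. All genes and promoters came from RefSeq tables of GRCm38.p6; a region took the gene whose extent was nearest to its centre within 100 kb, coding genes and then shorter ones first. Named chains were the 8 with most regions and ties, those with 3 or more calls in 1 direction (up to 12), the 4 highest and 4 lowest medians outside chromosome 2, and up to 4 per gene list. Other chains named, such as those with 2 gains or at microRNAs, were chosen after their values were seen. Some items are not reported here. The members and lists were chosen with earlier results of these data known. No test was run over regions, which are not replicates. Without values per library, no interval or leave-one-out fit was made. Alternatives changed the gap, the chain length, the p threshold, the gene end rule, chromosome 2 and abundance.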

Additional observations from a re-analysis of the deposited data

How the results depend on the processing

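No paired analysis was possible because the table holds 1 value per region and none per library, and leaving out a replicate was not possible either. Depth is unknown and limits every fold. Of 46 recomputed values, 13 stayed within the limits, 32 moved and 1 reversed. The limits were the 95% counting interval of the reported percentage, median or variance share, and a factor of 1.5 for counts of chains. Regions of a chain are not independent, so the intervals are narrow guides only. For the variance share the interval treated the share as a fraction of the 538 chains. It does not measure the spread of that share, so the label there is only a working rule. The rule for a chain set most of this, and why each value moved was not tested. With gaps of 2.5 kb there were 21 chains and 2 with several calls in 1 direction; 2.22% of members rose, 1.78% fell, the median log2 fold change turned to 0.10, the share of variance between chains was 0.237, and 14.2% lay at gene ends. With 10 kb there were 2836 chains and 272 with several calls, a median log2 fold change of -0.058, a variance share of 0.272 and 14.4% at gene ends. Chains of 8 or more regions numbered 1346, 89 with several calls, with 13.4% at gene ends. Those of 15 or more numbered 67, 11 with several calls, with 0.787% of members up, 2.97% down, a median of -0.24, a variance share of 0.268 and 10.8% at gene ends. An adjusted p under 0.05 called 9.92% up and 14.2% down (7.98% and 9.21% of all regions), with 360 chains of several calls; under 0.0001 it called 0.453% and 0.500% (0.387% and 0.252% of all regions), with 7 such chains. Gene ends within 3 kb held 27.2% of members, and those of coding genes only 6.89%. In the most abundant of 5 bins, chosen after seeing the data, 2.35% rose, 5.99% fell and the median was -0.22. Leaving out chromosome 2 moved none of the 7 results beyond these limits.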

Other observations

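A further 2 chains with 3 calls in 1 direction, beyond the 12 taken by the naming rule, were looked at after their values were seen. Agpat4, an acyltransferase gene, had 10 regions with a median of -0.89. Of these 3 fell, at -3.58, -3.71 and -4.06 in the authors' deposited table, and lay within 10 kb of each other, while the chain's last region stood at 0.62 (adjusted p = 0.426) by the authors' deposited table. Arid1b, a gene of the SWI/SNF remodelling complex, had 12 regions with a median of 0.20. Its 3 gains lay among the last 4 regions of the chain, at 1.98, 2.22 and 2.06 in the authors' deposited table, and its first region had a value of -1.66 (adjusted p = 0.00202) by the authors' deposited table.

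Further chains with 2 losses each, chosen for their losses after the values were seen, lay at the genes below. Cbfa2t3, which encodes a co-repressor of blood formation, had 13 regions with a median of -0.50. Its promoter region stood at -1.89 (adjusted p = 8.34e-04) and the region beyond it at -2.61 (adjusted p = 2.88e-04) by the authors' deposited table. A second Cbfa2t3 start, in the region at 122678137, stood at 0.38 (adjusted p = 0.678) by the authors' deposited table. Chains at Map4k4, Galc with Gpr65, St3gal1, Kcnn4 and Aim2 had 2 losses each, with medians of -1.32, -1.30, -0.48, -0.53 and -0.43.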
